A study of Mus musculus with 9 samples.

Results

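The cytosolic ribosomal protein genes encode the protein part of the ribosomes that translate most messages of a cell, and 45 of them were followed here along the small intestine of mice. Members were the genes whose symbol on the array is Rpl or Rps with a number and an optional final a or l, together with Rplp0, Rplp2 and Rpsa. Pseudogenes, ribosomal S6 kinase genes and X- or Y-suffixed symbols were left out. The 45 genes were chosen by name from 18193 genes with a probe set of their own, and 24 of them belong to the large (60S) subunit and 21 to the small (40S) subunit. Rplp1, the remaining stalk gene, is not among them because the array reads it with a probe set that carries several gene symbols. The 45 are thus only a part of the family, since any gene without a probe set of its own is missing.

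The arrays measured RNA from scraped small-intestinal mucosa. The mice were males of the inbred strain C57BL/6J, 9 weeks old when the diets began, and ate them for 2 weeks. All mice ate a high-fat diet, called HF-PO where the fat was palm oil, HF-OO where it was olive oil and HF-SO where it was safflower oil, and the P/S value that the labels give increases in that order. Segments SI1 (proximal), SI2 (middle) and SI3 (distal) are equal lengths of the gut, and each array holds a pool of RNA from 6 mice of 1 diet. There are therefore 9 arrays, 1 for each part and diet. Segments were compared over the 3 diet pools, whereas a diet has 1 array in each segment and so no replicate. The labels describe a low-fat diet too, and its arrays were not analysed here. Segments can be named here only as mixtures of cells, and in such bulk samples fewer cells of a type and less RNA per cell cannot be told apart.

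A ribosome is built in the nucleolus from ribosomal RNA and ribosomal proteins, which are needed in matched amounts. The messages of ribosomal protein genes begin with a C followed by a run of pyrimidines, the 5′ terminal oligopyrimidine (5′ TOP) motif, through which mTOR and the RNA-binding protein Larp1 control their translation together. In the intestine, dividing crypt cells and secretory cells are known for their high demand for protein synthesis.

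The starts of 6 members are shown first, because the pyrimidine run is the feature that these genes are known to share. These 6 were picked by hand and do not stand for all members. The windows come from RefSeq, build GRCm38.p6, and cover 50 bases before and 30 bases after the annotated start, read along the transcribed strand. Capitals mark the longest run of pyrimidines that begins with a C, and the first of equal ones.
Rps26, chr10:128626477-128626556, minus strand: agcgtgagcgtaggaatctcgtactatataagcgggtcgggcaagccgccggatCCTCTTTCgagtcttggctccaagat
Rps18, chr17:33955636-33955715, minus strand: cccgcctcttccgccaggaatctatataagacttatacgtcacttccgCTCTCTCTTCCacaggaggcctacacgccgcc
Rpl35, chr2:39005102-39005181, minus strand: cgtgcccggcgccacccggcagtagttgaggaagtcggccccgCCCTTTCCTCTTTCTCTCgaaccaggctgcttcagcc
Rplp2, chr7:141447601-141447680, plus strand: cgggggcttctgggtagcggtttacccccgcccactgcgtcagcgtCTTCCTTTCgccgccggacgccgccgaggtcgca
Rps10, chr17:27635215-27635294, minus strand: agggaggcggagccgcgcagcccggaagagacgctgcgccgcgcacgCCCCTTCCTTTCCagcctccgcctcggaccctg
Rps27l, chr9:66946036-66946115, plus strand: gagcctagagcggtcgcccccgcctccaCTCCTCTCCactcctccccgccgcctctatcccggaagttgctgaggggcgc
The run is 18 bases long in Rpl35, 13 in Rps10, 11 in Rps18, 9 in Rplp2 and 8 in Rps26, and it begins within 7 bases of the annotated start in each. In Rps27l, which passed no test between segments, 2 runs of 9 bases begin 22 and 12 bases before the annotated start. Only the first of them is in capitals, and this gene has 2 annotated promoters. Whether the place of a run goes with the call was not tested.

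Promoters were found for 39 of the 45 members. A C followed by at least 7 pyrimidines (C or T), on the transcribed strand between 30 bases before and 50 after the start, was present in 32 of the 39, or 82.1%, against 26.0% of 27025 genes. The shorter motif CTTTCC on the transcribed strand, which can lie within such a run, occurred anywhere in the 300-base window of 17 members, or 43.6%, against 16% of all genes. CCGGAAG, the core bound by ETS factors, was searched on both strands and found in 20 members, or 51.3%, against 9.93% of all genes. AAGATGGC, the core bound by YY1, searched on both strands, was in 3 members (7.69%, against 3.19%), and TATAAA on the transcribed strand in 4 (10.3%, against 9.77%). Among members with a promoter, the long run was in 19 of the 25 whose signal rose from SI1 to SI3. Those that rose without it were Rpl22, Rpl27, Rplp0, Rps3, Rps28 and Rpsa. It was in 11 of the 11 that were tested and did not pass, and no test was made of this. These are matches of letters within a window, and they say nothing about which factor was bound.

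Signals of the members ran from near 0 to 78.5% of the highest signal of an array. For 33 members the mean over the 9 arrays lay between 10320 and 36760 in units of array signal, and for 12 it lay between 4.19 and 2438, with none in between, a division made after the signals were seen. The 12 dimmer members are Rpl3l, Rpl12, Rpl14, Rpl27a, Rpl37, Rpl39, Rpl39l, Rps4l, Rps6, Rps16, Rps25 and Rps27. Of these, 9 also have their symbol on a probe set with several symbols, and for 8 such a probe set has a mean signal of 10000 or more. Those probe sets cannot be assigned to 1 gene, so the values below for these genes are those of a weak probe set of their own. A filter on low signal left 42 members for the tests, 22 of the large and 20 of the small subunit, and left out Rpl3l, Rpl39l and Rps16.

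**Figure D1:**
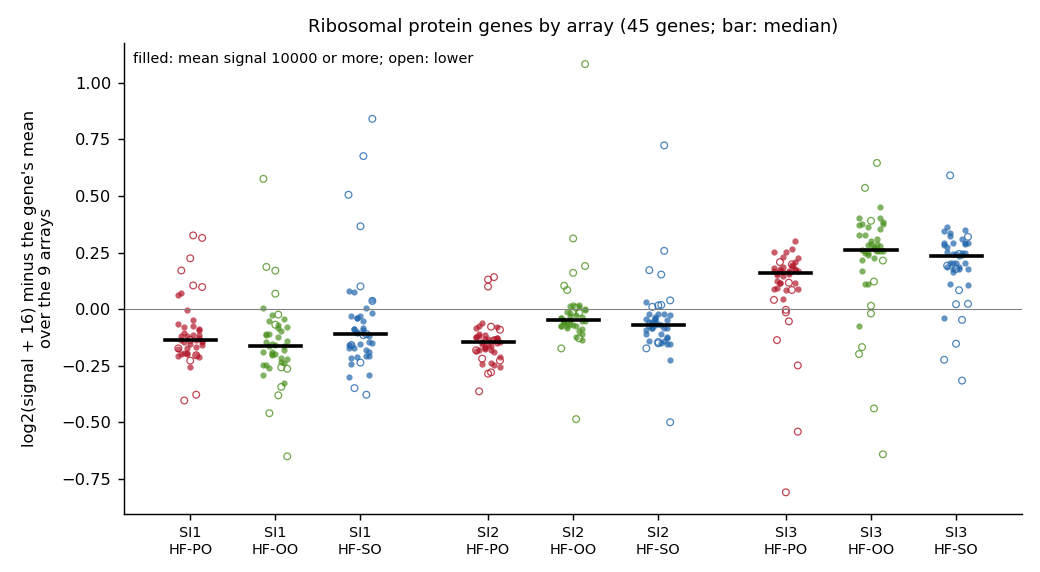
Each point is 1 of the 45 ribosomal protein genes on 1 array, as log2(signal + 16) minus the gene's own mean over the 9 arrays; filled points are the 33 genes with a mean signal of 10000 or more, open points the 12 others, and bars are medians over the 45 genes. The medians of the 3 SI3 arrays lie at 0.16, 0.26 and 0.23 and those of the other 6 arrays between -0.16 and -0.05.

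Ribosomal protein messages were higher in the distal segment than in either of the others. Against SI1, 29 of the 42 tested members rose in SI3 and 0 fell, at an adjusted p under 0.05 in limma's moderated test, where 25.0% of all 22519 probe sets tested rose and 19.2% fell. The increases were small, from 0.25 to 0.85 on the log2 scale, which is 1.19- to 1.8-fold. Their adjusted p ran from 8.43e-04 to 0.0398. The median over all 45 members was 0.34 on the log2 scale, against 0.08 over all probe sets tested, and it was 0.28 in the HF-PO pool, 0.41 in HF-OO and 0.32 in HF-SO. Fold changes are on the scale of log2(signal + 16) and understate those of dim genes. With quantile normalization 18 members rose, and without the filter on low signal 12 did. Leaving out a pool gave 19 without HF-PO, 5 without HF-OO and 6 without HF-SO, with medians of 0.35, 0.29 and 0.36 and fewer residual degrees of freedom.

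Large-subunit genes made up 15 of those 29: Rpl4, Rpl6, Rpl7, Rpl7a, Rpl8, Rpl10a, Rpl12, Rpl19, Rpl22, Rpl27, Rpl35, Rpl37a, Rpl38, Rplp0 and Rplp2. Rpl6, a large-subunit protein of eukaryotes, had signals of 11486, 10829 and 10746 in SI1, 12157, 12905 and 12860 in SI2 and 15759, 17495 and 16838 in SI3, in the order HF-PO, HF-OO, HF-SO, which is kept below. The SI3 arrays were the 3 highest and no group overlapped its neighbour. The log2 change from SI1 to SI3 was 0.60 with an SE of 0.09 (adjusted p = 0.00167), or 1.51-fold.

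Rpl12, a protein at the base of the stalk where elongation factors dock, had the largest rise when each member was read from its brightest probe set. The probe set of Rpl12 is dim. Its signals were 167.7, 160.7 and 174.8 in SI1, 192.8, 241.6 and 228.7 in SI2 and 264.6, 336.1 and 349.8 in SI3. The groups lay in that order without overlap, and the log2 change from SI1 to SI3 was 0.85 with an SE of 0.10 (adjusted p = 8.43e-04). From SI1 to SI2 Rpl12 differed by 0.36, with an adjusted p of 0.0592 that passed the threshold only under quantile normalization. Rpl27, in which mutations can cause Diamond-Blackfan anaemia, rose by 0.49 (SE 0.10, adjusted p = 0.00723), from 11725 ± 966 in SI1 to 16471 ± 1143 in SI3 (SD, n = 3 pools). Both further probe sets of Rpl27 differed by 0.01 and were not called.

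Rplp0 and Rplp2 form the stalk itself together with Rplp1. Rplp0 gave 19706, 20471 and 21142 in SI1, 21424, 23816 and 22457 in SI2 and 27970, 28655 and 27792 in SI3, a log2 change from SI1 to SI3 of 0.46 (SE 0.08, adjusted p = 0.00379). Rplp2 gave 21252, 20894 and 21202 in SI1, 19361, 20854 and 19813 in SI2 and 24648, 25659 and 24865 in SI3. Its rise from SI1, 0.25 with an SE of 0.08 (adjusted p = 0.0398), was the smallest among the 29, and it did not pass under quantile normalization. In both genes all 3 SI3 signals stood above the other 6, while in Rplp2 the SI2 signals were all below those of SI1, a difference of -0.08 that did not pass (adjusted p = 0.540).

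Rpl37a and Rpl38 had, with Rplp2, the smallest residual spread among large-subunit genes, with residual SDs of 0.0362 and 0.0380 on the log2 scale. Rpl38, whose loss in mice disturbs the pattern of the axial skeleton, had means of 25113 ± 1261 in SI1, 25847 ± 798 in SI2 and 31439 ± 784 in SI3 (SD, n = 3 pools). Its change from SI1 to SI3 was 0.32 (SE 0.08, adjusted p = 0.0149), and that of Rpl37a was 0.36 (SE 0.08, adjusted p = 0.00928). Neither passed under quantile normalization. Rpl35 rose by 0.44 (SE 0.10, adjusted p = 0.0102), with signals of 12638, 11129 and 11835 in SI1 and of 14978, 17120 and 16101 in SI3. Its further tested probe sets differed by 0.32 and 0.36, which were called, and by 0.19 and 0.09, which were not.

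Small-subunit genes made up the other 14: Rps2, Rps3, Rps7, Rps9, Rps10, Rps14, Rps15, Rps18, Rps19, Rps20, Rps24, Rps26, Rps28 and Rpsa. Rps26, which touches the message as it leaves the small subunit, gave 13275, 13021 and 12573 in SI1, 14072, 14834 and 14052 in SI2 and 18930, 20977 and 18788 in SI3. The SI3 arrays stood clear of all others, and the log2 change from SI1 to SI3 was 0.59 (SE 0.08, adjusted p = 0.00134), or 1.51-fold. Rps18, which takes part in a bridge between the subunits, gave 17433, 16130 and 16196 in SI1, 18192, 18467 and 17407 in SI2 and 21291, 24875 and 24658 in SI3. The HF-PO array was the lowest of the 3 in SI3 and still above every SI1 and SI2 array, and the change was 0.51 (SE 0.10, adjusted p = 0.00577).

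Rps3, which lies at the channel where the message enters, gave 12719, 12681 and 12586 in SI1, 12873, 14221 and 13865 in SI2 and 17056, 18735 and 17827 in SI3. Its change from SI1 to SI3 was 0.50 (SE 0.08, adjusted p = 0.00281), with a residual SD of 0.0441, which along with those of Rps28 (0.0321) and Rps2 (0.0415) was the smallest of the small subunit. Rps2 rose by 0.39 (adjusted p = 0.00765) and Rps28 by 0.29 (adjusted p = 0.0221), the latter not under quantile normalization. Rps19, the gene most often mutated in Diamond-Blackfan anaemia, rose by 0.46 (SE 0.09, adjusted p = 0.00662), from 9032 ± 489 to 12413 ± 759 (SD, n = 3 pools). Rpsa, also known as the laminin receptor, gave 13319, 12778 and 13400 in SI1, 12854, 14848 and 14598 in SI2 and 15840, 19417 and 18239 in SI3, a rise of 0.43 (SE 0.09, adjusted p = 0.00963).

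**Figure D2:**
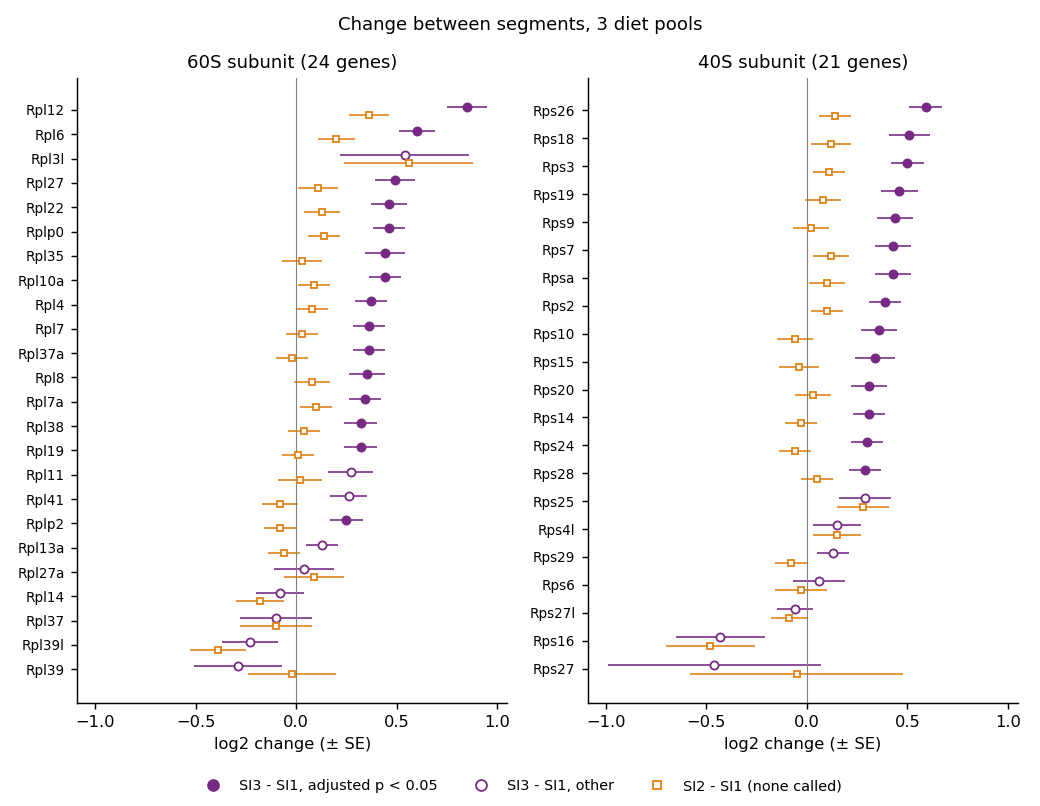
Log2 change of each ribosomal protein gene, with its standard error from limma over 3 diet pools, between SI3 and SI1 (circles, filled where the adjusted p is under 0.05) and between SI2 and SI1 (squares, none called), on the scale of log2(signal + 16), large subunit left and small subunit right. The filled circles lie between 0.25 and 0.85, all to the right of 0; open circles include the 3 genes that were not tested (Rpl3l, Rpl39l and Rps16).

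Between SI1 and SI2 no member passed the test on its brightest probe set. By limma's moderated test 0 of 42 members were higher and 0 lower, where 8.07% of all probe sets tested were higher and 6.92% lower, and 1 member had an unadjusted p under 0.05. The median over the 45 members was 0.03, as it was over all probe sets tested, with -0.02 in the HF-PO pool, 0.13 in HF-OO and 0.05 in HF-SO. For the 33 bright members the SI2 minus SI1 differences ran from -0.09 to 0.20, with Rpl6 the highest. Under quantile normalization 1 member passed.

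From SI2 to SI3, 26 members rose and 0 fell by limma's test, where 10.4% of all probe sets tested rose and 10.8% fell. This comparison and that of SI3 with SI1 share the SI3 arrays. The called increases ran from 0.28 to 0.49 on the log2 scale, or 1.22- to 1.4-fold, with adjusted p from 0.00987 to 0.0457, and 14 of them were of the large and 12 of the small subunit. The median over the 45 members was 0.31, against 0.03 over all probe sets tested, and it was 0.30 in HF-PO, 0.30 in HF-OO and 0.31 in HF-SO, with an SD of 0.006 over the 3 pools. With 1 pool left out, whichever it was, 0 members passed while the median stayed between 0.30 and 0.31. Under quantile normalization 6 rose, and without the filter 0 did.

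The largest of these increases were those of Rpl12 (0.49, adjusted p = 0.0186), Rps26 (0.45, adjusted p = 0.00987) and Rps9 (0.42, adjusted p = 0.0184). Rps9, which lines the entry of the message with Rps2 and Rps3, gave 11233, 10688 and 10379 in SI1, 10800, 10901 and 10973 in SI2 and 13543, 15803 and 14600 in SI3. SI1 and SI2 overlapped and SI3 stood above both. The 2 further tested probe sets of Rps9 differed by 0.03 and 0.18 from SI2 to SI3 and by -0.25 and 0.26 from SI1 to SI3, and neither was called. Rps10, a protein of the small-subunit head, rose by 0.42 (SE 0.09, adjusted p = 0.0157), from 24913 ± 1301 in SI2 to 33282 ± 217 in SI3 (SD, n = 3 pools). Rpl35 (0.40), Rpl6 (0.40), Rps3 (0.39) and Rps18 (0.39) followed. Rpl41, the smallest ribosomal protein, rose from SI2 to SI3 (0.34, adjusted p = 0.0384) and differed by 0.26 between SI1 and SI3 without passing (adjusted p = 0.0531).

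Counted without a model, all 3 SI3 arrays lay above the other 6 for 33 of the 45 members, 18 of the large and 15 of the small subunit, where 17.9% of the probe sets tested did so. Of the 33 bright members 32 had this order, and the exception was Rps27l. A moderated F test over the 3 segments called 30 members, where 40.7% of all probe sets tested were called. The members' signals made up 1.63% ± 0.0255 of the total array signal in SI1, 1.68% ± 0.0591 in SI2 and 2.04% ± 0.0775 in SI3 (SD, n = 3 pools), a share that signals near the top of the scale can understate.

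The same step was looked at in other bright probe sets. A set of 584 probe sets had a mean signal of 10000 or more and no symbol of the members' form. Ribosomal protein genes with other forms of symbol, such as Fau, were not removed from it. From SI1 to SI3, 156 of the 584 rose and 192 fell, with a median of 0.00. From SI2 to SI3, 83 rose and 95 fell, with a median of 0.03. The 33 bright members had medians of 0.36 and 0.33 in these comparisons, with 28 and 25 called higher. The residual SDs of the bright members ran from 0.0321 to 0.119 on the log2 scale. Their median was 0.0511, against 0.200 for the dim members. The median was 0.0673 over the 42 tested members and 0.149 over all probe sets tested, which were not matched to each other for signal.

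Among the 5 bright members without a call between SI1 and SI3, Rps27l stood apart. Rps27l, a paralog of Rps27 that p53 activates, gave 12390, 11885 and 12529 in SI1, 11167, 11265 and 12108 in SI2 and 12593, 11249 and 11542 in SI3. The groups overlapped, and the change from SI1 to SI3 was -0.06 (SE 0.09, adjusted p = 0.608). Its 2 further probe sets, with changes of 0.05 and -0.07, were not called either. Rps29, a zinc-binding protein of the small subunit, gave 34765, 35365 and 38638 in SI1, 32975, 35125 and 34966 in SI2 and 39683, 39654 and 39637 in SI3, a change from SI1 of 0.13 (SE 0.08, adjusted p = 0.231). Its 3 SI3 signals were higher than the other 6 and nearly equal, with an SD of 22.8 against 2085 in SI1, and they reached 78.5% of an array's highest signal. Both dimmer probe sets of Rps29 rose from SI1 to SI3, by 0.25 and 0.43, and saturation was not tested.

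Rpl13a, which is released from the ribosome after interferon gamma, differed by 0.13 between SI1 and SI3 (SE 0.08, adjusted p = 0.237) on its brightest probe set, while another of its 4 probe sets rose by 0.37. Rpl11, which binds the p53 inhibitor Mdm2 when ribosome assembly is disturbed, gave 11322, 9751 and 9292 in SI1 and 11503, 12141 and 12848 in SI3, a difference of 0.27 (SE 0.11, adjusted p = 0.0762). Its residual SD, 0.119, was the largest of the bright members, and the HF-PO pool differed by 0.02 where HF-OO differed by 0.32 and HF-SO by 0.47. In 8 members, Rpl13a, Rpl38, Rpl41, Rplp0, Rps10, Rps14, Rps28 and Rps29, a signal exceeded 50% of the highest on its array.

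The paralogs whose symbols end in l are known from particular tissues or are copies of a broadly used gene. Rpl39l, a paralog used in the testis, had signals between 17 and 57.8, and Rpl3l, which replaces Rpl3 in heart and skeletal muscle, between 8.90 and 37.4. Both fell below the filter and have no test. Rps4l, a copy of Rps4x, gave 2208, 2545 and 2058 in SI1, 2658, 2714 and 2193 in SI2 and 2422, 2394 and 2746 in SI3, with overlapping groups and a difference of 0.15 between SI1 and SI3 (adjusted p = 0.348).

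The remaining dim members held no call but that of Rpl12. Rps16 had signals between 0.900 and 13.4 and no test. Rps27, a zinc-binding small-subunit protein, gave 325.0, 158.8 and 474.9 in SI1, 218.3, 564.4 and 178.0 in SI2 and 172.5, 159.9 and 326.2 in SI3, the widest spread of all members with a residual SD of 0.851. Rpl39, which lines the exit tunnel, gave 458.3, 608.6 and 699.4 in SI1, 578.9, 673.3 and 484.2 in SI2 and 301.0, 711.5 and 483.5 in SI3. Rps25, used at viral internal ribosome entry sites, and Rps6, the substrate of the S6 kinases, differed by 0.29 (adjusted p = 0.119) and 0.06 (adjusted p = 0.719) between SI1 and SI3. Rpl14, Rpl27a and Rpl37 differed by -0.08, 0.04 and -0.10, with adjusted p of 0.623, 0.854 and 0.660. The residual SDs of the 12 dim members had a median of 0.200 on the log2 scale, against 0.0511 for the 33 bright members.

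The members have 98 probe sets with 1 symbol, 83 of them tested, and from SI1 to SI3 49 rose and 0 fell, with a median over the 98 of 0.32. Without the brightest probe set of each gene, 20 of 41 tested rose and 0 fell, with a median of 0.28. Of these 41, 5 differed by less than 0 without a call, in Rps10 (-0.31), Rps24 (-0.27), Rps9 (-0.25), Rpl13a (-0.22) and Rps27l (-0.07). Among the 41, those of Rpl7 rose by 0.62 and 0.89 from SI1 to SI3, where its brightest probe set rose by 0.36. From SI1 to SI2, 1 of the 41 rose, a probe set of Rpl22 (0.49), and 0 fell, with a median of -0.01. From SI2 to SI3, 14 of the 41 rose and 0 fell, with a median of 0.30. Probe sets ending in x_at or s_at, which can bind messages of related genes, rose in 22 of 41 tested, and those ending in at or a_at in 27 of 42. Of the 110 probe sets that carry a ribosomal protein symbol beside other symbols, 99 were tested, of which 64 rose and 1 fell. Of 19 members with several tested probe sets, 7 had all of them called higher, 10 some and 2 none. Ribosomal protein genes have many processed pseudogenes, so signals from near-identical copies cannot be told apart on the array.

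Genes that work with the ribosomal proteins were counted from lists written from general knowledge. The counts from SI1 to SI3 are to be read against the 25.0% of all probe sets tested that rose and the 19.2% that fell. The 17 further 5′ TOP genes on the array, mostly translation factors, were all tested, and 9 rose from SI1 to SI3 and 0 fell, with a median of 0.29. They include Npm1, a nucleolar chaperone (0.76, adjusted p = 0.00812), Eef2, the translocation factor (0.58, adjusted p = 0.00122), and Pabpc1, the poly(A)-binding protein (0.47, adjusted p = 0.00378). Eef2 rose from SI1 to SI2 (0.41, adjusted p = 0.0173) and had no call from SI2 to SI3 (0.17, adjusted p = 0.161). Eef1a1, which brings aminoacyl-tRNA to the ribosome, differed by 0.22 (adjusted p = 0.0866) and Fau, whose product contains a small-subunit protein, by 0.17 (adjusted p = 0.302).

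Of 35 tested ribosome biogenesis genes 24 rose and 2 fell, with a median of 0.46 over 37. Fbl, the ribosomal RNA methyltransferase, rose by 0.84 (adjusted p = 0.00302), Gar1, of the pseudouridine-forming particles, by 0.91 (adjusted p = 0.00577), and Ncl, nucleolin, by 0.61 (adjusted p = 0.00630). Sbds, which helps to release Eif6 from new large subunits, fell by 0.70 (adjusted p = 0.00117), and Surf6, a nucleolar protein, fell by 0.68 (adjusted p = 0.00612). RNA polymerase I and its factors, which transcribe ribosomal RNA, held 8 genes that rose and 0 that fell of 15, with a median of 0.39; the largest rise was that of Polr2h, a subunit shared by all nuclear RNA polymerases (1.14, adjusted p = 3.97e-04).

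Translation initiation factors rose in 9 of 23 and fell in 0, with a median of 0.16, led by Eif2s2 (0.94, adjusted p = 4.95e-04). Of 18 genes that control ribosomal protein synthesis, 6 rose, near the 25.0% of all probe sets tested, and 1 fell. Larp1, which binds 5′ TOP messages, rose by 0.43 (adjusted p = 0.00451), Myc, which activates genes of ribosome production, by 0.52 (adjusted p = 0.0492), and Mxi1, an antagonist of Myc, fell by 0.72 (adjusted p = 6.17e-04). The others that rose were Zfp622 (0.67), Akt1s1 (0.32), Eif4ebp1 (0.28) and Rps6kb2 (0.24). Mtor differed by 0.08 (adjusted p = 0.517), Mycn by 0.21 (adjusted p = 0.470) and Max by -0.44 (adjusted p = 0.054), all without a call. The ribosomal proteins of mitochondria are a separate set of genes, and their list of 76 was picked by symbol alone. From SI1 to SI3, 3 of the 76 rose, fewer than the 25.0% of all probe sets tested, and the median was -0.06. In the same comparison 18 fell, near the 19.2% of all, among them Mrpl12 (-0.92, adjusted p = 3.13e-04). From SI1 to SI2 these 6 lists held few calls. In the order given, 1 of 17, 0 of 35, 2 of 15, 1 of 23, 1 of 18 and 1 of 76 rose. In the same order 0, 2, 0, 0, 1 and 4 fell, where 8.07% of all probe sets tested rose and 6.92% fell. From SI2 to SI3 the numbers that rose were 4, 10, 6, 2, 1 and 1, where 10.4% of all probe sets tested rose. Those that fell were 0, 0, 0, 0, 1 and 3, where 10.8% of all fell.

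**Figure D3:**
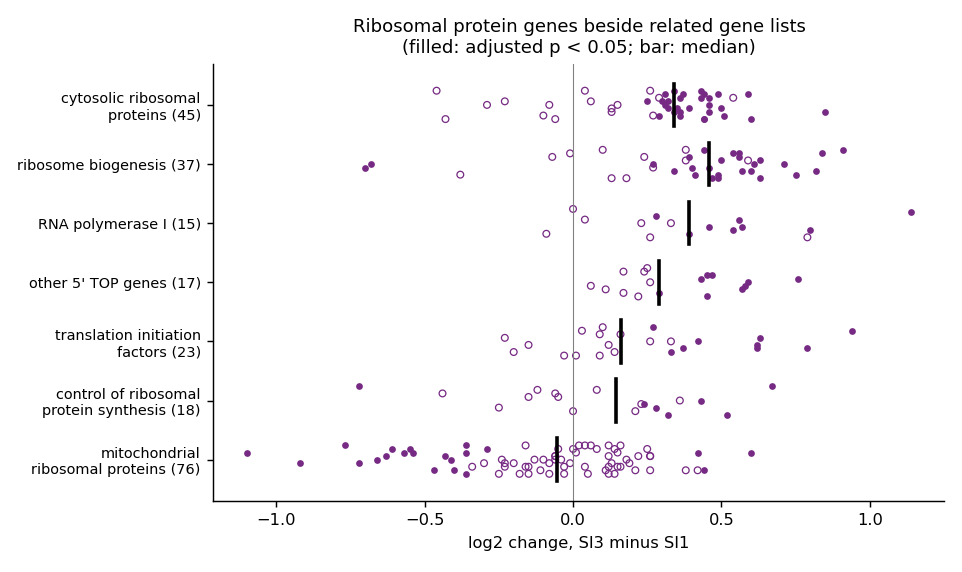
Log2 change from SI1 to SI3 of the ribosomal protein genes and of 6 related lists; each point is 1 gene, filled where limma's adjusted p is under 0.05, bars are list medians, and the number of genes on the array stands in brackets. The ribosomal protein genes run from -0.46 to 0.85 with a median of 0.34, ribosome biogenesis genes from -0.70 to 0.91 with a median of 0.46, and mitochondrial ribosomal proteins have a median of -0.06.

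Markers of several cell types moved along the same axis, and their part in the result was not tested. All 4 Paneth cell markers rose from SI1 to SI3, with summed signals of 28425 to 37576 in SI1, 62584 to 67481 in SI2 and 89975 to 106461 in SI3. All 6 goblet cell markers rose, from sums of 93314 to 105953 in SI1 and 113413 to 116806 in SI2 to 156909 to 167606 in SI3. Of 9 proliferation markers of crypts 5 rose and 1 fell, with sums of 11150 to 13635, 11626 to 12773 and 13262 to 16795. The brightest of them, Pcna, had no call, and the median change was 0.07 from SI1 to SI2 and 0.57 from SI2 to SI3. From SI2 to SI3, 3 of the 9 rose and 0 fell, where 10.4% of all probe sets tested rose. Rrm2, 1 of these 3, differed by -1.1 from SI1 to SI2, a fall that was called, and by 0.59 from SI2 to SI3. Mcm2 differed by -0.45 from SI2 to SI3 without a call. Of 6 stem cell markers 4 rose and 1 fell, with sums of 8402 to 11357, 10954 to 12918 and 14279 to 16706. Their median change was 0.25 from SI1 to SI2, where 1 rose and 1 fell, and 0.32 from SI2 to SI3, where 1 rose and 0 fell. T and intraepithelial lymphocyte markers fell in 6 of 6, with sums of 13665 to 17689 in SI1, 8349 to 11038 in SI2 and 4450 to 6660 in SI3. Enterocyte markers, which identify the labelled mucosa, were bright throughout, with sums of 157245 to 189677, 165482 to 176166 and 182883 to 199353, and 2 of 5 rose and 1 fell.

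Of 5 B and plasma cell markers, the B cell genes Cd79a, Cd79b and Ms4a1 had no call from SI1 to SI2 and rose from SI2 to SI3 by 0.79, 0.66 and 0.95, while the plasma cell genes Jchain and Mzb1 fell from SI1 to SI3. The summed signals of these 5 were 23021 to 24234 in SI1, 14817 to 16408 in SI2 and 8849 to 10790 in SI3. Macrophage markers fell in 5 of 6 from SI1 to SI3 and rose in 1, with a median of -1.56 and sums of 13085 to 13571, 10902 to 12165 and 8562 to 10370. Enteroendocrine markers fell in 3 of 6 and rose in 1, with sums of 14459 to 14766, 13968 to 14143 and 8576 to 9474, and smooth muscle markers fell in 2 of 6, with sums of 3914 to 4220, 3358 to 4751 and 2776 to 3280.

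Exocrine pancreas enzymes summed to between 35938 and 45894 in SI1, 974 to 1417 in SI2 and 1058 to 1174 in SI3, and 8 of 8 fell from SI1 to SI2. Cpa1 went from 4224 ± 683 in SI1 to 3.20 ± 0.800 in SI2 (SD, n = 3 pools). Across that same step, from SI1 to SI2, 0 ribosomal protein genes were called and their median difference was 0.03. Paneth markers rose in 4 of 4 from SI1 to SI2 and in 4 of 4 from SI2 to SI3. The part of these cells in the members' values was not tested.

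Between diets there was no replicate, so differences are described without a test. In SI1 the median over the 45 members was 0.02 for HF-PO minus HF-OO, 0.00 for HF-PO minus HF-SO and 0.05 for HF-SO minus HF-OO, on the log2 scale. In SI2 the medians were -0.11, -0.09 and -0.03 and in SI3 -0.12, -0.10 and -0.04, where the medians over all tested genes lay between -0.02 and 0.01 in every segment. HF-PO was thus the lowest diet for 33 of 42 tested members in SI2 and 30 in SI3, against 11 in SI1, where 35.9%, 39.6% and 34.4% of all probe sets tested had it lowest. These medians depend on the scaling: with each array centred on its median, HF-PO minus HF-OO was -0.03 in SI2 and -0.04 in SI3, and HF-PO minus HF-SO was 0 in SI3. The sign of HF-SO minus HF-OO turned in SI1 and SI2 with that centring, in SI2 and SI3 under quantile normalization and in SI2 under cyclic loess.

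Rpsa showed the widest gap among bright members in SI3, with 15840 in HF-PO against 19417 in HF-OO, a difference of -0.29. Rps27l was the opposite, with 12593 in HF-PO and 11249 in HF-OO, a difference of 0.16. No bright member differed by 1.5-fold from both other diets in any segment. Counting all 45, 3 members did so in SI1, 2 in SI2 and 2 in SI3, where 4.92%, 4.72% and 5.65% of all probe sets tested did. They were Rps16, Rpl39l and Rps27 in SI1, Rps27 and Rpl3l in SI2 and Rpl39 and Rps27 in SI3, all dim, and Rps27 was lower in HF-OO in SI1, higher in HF-OO in SI2 and higher in HF-SO in SI3.

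**Figure D4:**
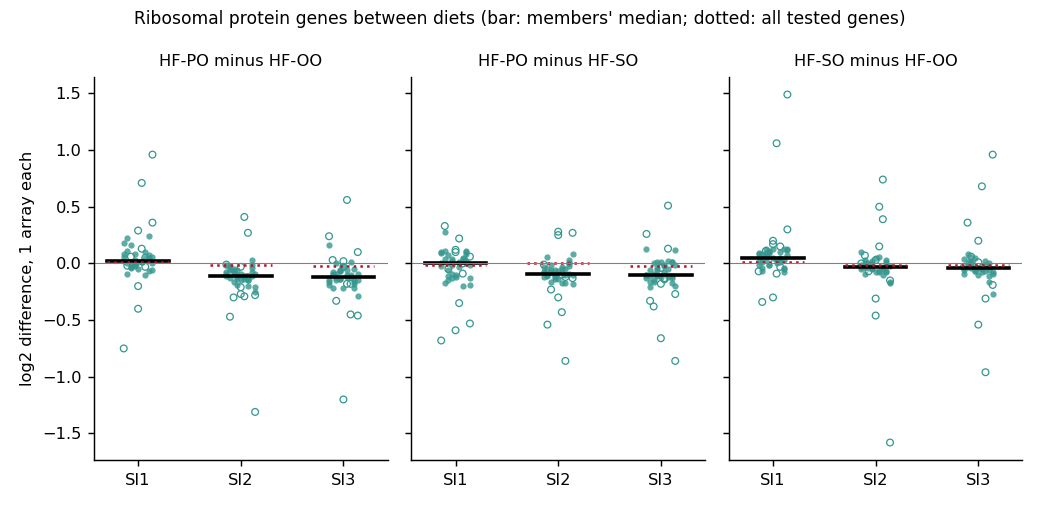
Log2 difference between single arrays of 2 diets for each ribosomal protein gene in each segment; filled points are genes with a mean signal of 10000 or more, open points dimmer genes, black bars the members' median and dotted lines the median of all tested genes. In the deposited scaling the members' medians for HF-PO minus HF-OO are 0.02 in SI1, -0.11 in SI2 and -0.12 in SI3; after centring each array on its median those of SI2 and SI3 are -0.03 and -0.04, and the sign of HF-SO minus HF-OO turns in SI1 and SI2, as it does in SI2 and SI3 under quantile normalization and in SI2 under cyclic loess.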

How the data were processed

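The authors deposited 1 intensity value on a linear scale for every probe set of an array. Per the submitters' processing notes it was made with MAS5, which summarises each array by itself, in a version not given in the sources used here. Of 45101 probe sets in the deposited table, 64 array controls were left out. The 9 arrays had median signals between 94.4 and 105.9, and their number limits the precision.

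In the platform annotation 34945 probe sets have 1 symbol, 932 several and 9160 none, and genes were read from the brightest probe set of the first kind. All 45 members were found by gene identifier in a RefSeq table. Signals were taken as log2(signal + 16), and probe sets with a mean at or above the median of all (6.80) were tested, in all 22519. The linear model of limma 3.58.1 (R 4.3.3; lmFit and eBayes, two-sided) had terms for segment and for diet pool, the latter as a block, since 1 set of 6 mice gave all segments of a diet. It left 4 residual degrees of freedom, which also take up any way in which the diets alter a segment difference, and Benjamini-Hochberg adjustment covered every probe set tested. A residual SD is that of this fit.

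Members and lists were chosen with earlier results of these data known. Named members are the 8 largest called changes of each segment pair, the stalk genes and Rpsa, paralogs ending in l, members that failed the filter or were set apart by a diet, and the 3 with the smallest and largest residual SD in each subunit. Rpl11, Rpl13a, Rpl41 and Rps29 were added after their values were seen, because they were bright and not called, and the other members outside the rule for completeness. A member was set apart by a diet at 1.5-fold from both others. Promoters came from RefSeq, GRCm38.p6. The model was also run on simulated data, in which the changes were larger than those called among members and all probe sets shared a common spread. That run cannot show how well smaller changes are recovered. Tables and plots were made in Python 3.11.15 with pandas 2.3.3, numpy 2.4.6 and matplotlib 3.10.9. Alternatives covered the normalization, the pseudocount (1 and 64), the filter, the choice of probe set, the block and each pool left out.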

Additional observations from a re-analysis of the deposited data

How the results depend on the processing

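Named members were followed one by one under the alternatives of normalization, pseudocount, block and pool. They were not followed so under those of the filter and the choice of probe set. None of the alternatives followed turned a called change between segments of a named member. Differences that were not called turned sign in 16 cases. From SI2 to SI3 Rps25 was -0.01 under quantile normalization and -0.03 under cyclic loess, and Rpl37 was 0.03 with median centring. Leaving out a pool turned 13 of them. The ranges from SI1 to SI2 were -0.31 to 0.12 for Rpl37, -0.05 to 0.02 for Rpl37a, -0.94 to 0.59 for Rps27, -0.19 to 0.23 for Rpl39, -0.04 to 0.11 for Rpl35 and -0.01 to 0.05 for Rps9. From SI1 to SI3 Rpl37 ran from -0.33 to 0.02. From SI2 to SI3 the ranges were -0.13 to 0.12 for Rpl37, -0.46 to 0.04 for Rpl39, -0.04 to 0.09 for Rps27l, -0.18 to 0.17 for Rps25 and -1.02 to 0.25 for Rps27. The cause was not tested. Quantile normalization gave 18 members higher from SI1 to SI3 with a median of 0.24, 1 called from SI1 to SI2, 6 higher from SI2 to SI3 with a median of 0.19, and 13 in the F test; the cause was not tested. Without the filter these counts were 12, 0 and 0, and 3 in the F test. Averaging all probe sets of a gene gave 24 from SI1 to SI3, 1 from SI1 to SI2 and 20 from SI2 to SI3 with a median of 0.27, and median centring a median of 0.34 from SI2 to SI3. Leaving out a pool, with 2 residual degrees of freedom, gave 5 to 19 members from SI1 to SI3, 0 from SI2 to SI3 and 1 to 12 in the F test, and medians of 0.01 to 0.11 from SI1 to SI2 and of 0.30 to 0.31 from SI2 to SI3. The fit with no replicate block, which ignores the pairing of segments by pool, gave 31 from SI1 to SI3, 0 from SI1 to SI2, 27 from SI2 to SI3 and 30 in the F test, and changed the call of no named member.

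Diet differences, all between single arrays, moved with the scaling. In SI1, HF-PO minus HF-OO was 0.09 and HF-PO minus HF-SO 0.08 under quantile normalization, and HF-PO minus HF-SO was 0.08 under cyclic loess and median centring. With median centring HF-SO minus HF-OO was -0.02 in SI1 and 0.03 in SI2, HF-PO minus HF-OO was -0.03 in SI2 and -0.04 in SI3, and HF-PO minus HF-SO was 0 in SI3. Under quantile normalization HF-SO minus HF-OO was 0.02 in SI2 and 0.02 in SI3, and under cyclic loess 0.02 in SI2. The count of members set apart by a diet in SI1, SI2 and SI3 was 5, 4 and 6 at a lower fold limit, 0, 1 and 0 at 2-fold and 1, 1 and 1 with a pseudocount of 64. In SI3 it was 5 with a pseudocount of 1 and 4 under quantile normalization and cyclic loess. For named members, quantile normalization ended 14 of the calls and added 1, cyclic loess ended 1, and leaving out a pool ended 76, over the 3 pools and 3 segment pairs. Ended calls were not counted this way for the filter or the choice of probe set. Without the filter no member passed from SI2 to SI3, so every such call of a named member ended there. Dim probe sets limit what could be seen for 12 of the 45 members.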
